A study of Mus musculus with 2 samples.

Results

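The organic ion and drug transporters described here are the mouse Slc22a, Slc47a and Slco genes. They were taken by gene name from the array design, with each gene read from its brightest probe, and 2 Slco genes were left out by the rule. This gave 34 genes on 38 probes, among 31788 gene names on the array. RNA came from mouse primary hepatocytes, which are liver parenchymal cells isolated for culture, in 2 groups of 1 array each. The first group received G0s2 siRNA and the second control siRNA, both at 50 pmol with a lipid reagent in medium with 10% serum, and RNA was taken after 24 hours. The strain, sex and age of the mice are not given in the sources used here. With 1 array per group, every difference is one between those 2 arrays, without replicates to check it and without a test.

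Slc22a proteins carry organic cations, zwitterions such as carnitine, and organic anions across the plasma membrane. Slco genes encode organic anion transporting polypeptides, which take up bile acids, hormones, prostaglandins and many drugs without sodium. The Slc47a proteins are exporters: they move organic cations out of the cell in exchange for protons, in the hepatocyte into bile. In the liver, carriers on the blood-facing membrane and exporters on the bile-facing membrane together set how fast a drug is cleared.

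Sequences of the probes behind the values past 2-fold on both arrays, and of a pair of measured probes that gave unequal values for 1 gene, show what each value rests on. All are given 5′ to 3′, read from the scanner tables, with coordinates on mm9. Annotation of exons and UTRs for mm9 was not used here. The Slc47a1 probe (A_55_P2023001, for NM_026183) lies on the minus strand of chr11:61157910-61157969 at transcript position 1566, and its 60 bases are printed in full. The Slc22a7 probe (A_51_P395856, for NM_144856) lies on the minus strand of chr17:46569272-46569331 at position 1809. The Slco3a1 probes lie on the minus strand of chr7:81426878-81426937 (A_55_P1989663, for NM_023908, position 4561) and of chr7:81420362-81420421 (A_66_P135106, for NM_001038643, position 2739), so they name different transcripts. Of the Slc22a7 and Slco3a1 probes the first 30 of 60 bases are shown.
Slc47a1: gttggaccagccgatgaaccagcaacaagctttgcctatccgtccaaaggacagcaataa
Slc22a7: cctgtgtttatccagtctccaaaaacagga
Slco3a1, brightest probe: acggaggccctgggatgtactctgtttcat
Slco3a1, other probe: gtggtagtctgtatttttgcagcttctatt

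The arrays shared a slide, and the one with G0s2 siRNA was the brighter. Its 75th percentile of processed signal was 728, against 418 on the control siRNA array, a ratio of 1.74. Levels below are therefore log2 processed signals minus the array's own 75th percentile, and a difference is the G0s2 siRNA level less the control siRNA level. The error beside a difference comes from the signal errors that the scanner reports, carried to the log2 scale, and does not cover variation between cultures. G0s2, the gene the siRNA targets and an inhibitor of the lipase that starts triglyceride breakdown, had a signal of 103 with G0s2 siRNA and 383 with control siRNA, a difference of -2.70 ± 0.21. Hepatocyte markers were above background on both arrays in 10 of 10 cases, with a median difference of 0.36 and a summed signal of 1359 times the 75th percentile on the G0s2 siRNA array and 1062 times on the control siRNA array. Of 8 cholangiocyte markers 6 were measured, and all 6 were negative with a median of -0.91 and a summed signal of 4.40 times the 75th percentile with G0s2 siRNA and 7.83 times with control siRNA. Of 8 endothelial markers 7 were measured, with 4 positive and a median of 0.77, and all 8 macrophage markers were measured, with 5 positive, a median of 0.35 and summed signals of 12.3 times with G0s2 siRNA and 13.4 times with control siRNA. Of 7 stellate cell markers 4 were dim on both arrays, among them Pdgfrb and Reln, and of 5 leukocyte markers on the array 3 were dim on both, among them Ptprc. The other leukocyte markers were Cd3e, with a signal of 679 with G0s2 siRNA and 784 with control siRNA and a difference of -1.01, and Nkg7, with 644 with G0s2 siRNA and 391 with control siRNA and a difference of -0.08. Whether these shifts in marker levels contributed to any transporter value was not tested.

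Many of the transporter genes were not detected. The scanner called the brightest probe well above background on both arrays for 17 of 34 genes, on the G0s2 siRNA array only for 1 gene, and on neither array for 16 genes. Detection on at least 1 array was thus 52.9%, against 59.1% over all gene names. The 16 dim genes had signals of 3.61 to 15.3 on the G0s2 siRNA array and 2.93 to 9.51 on the control siRNA array, and for 12 of them neither spot was significantly above background by the scanner's test. For these genes the arrays give no difference.

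**Figure D1:**
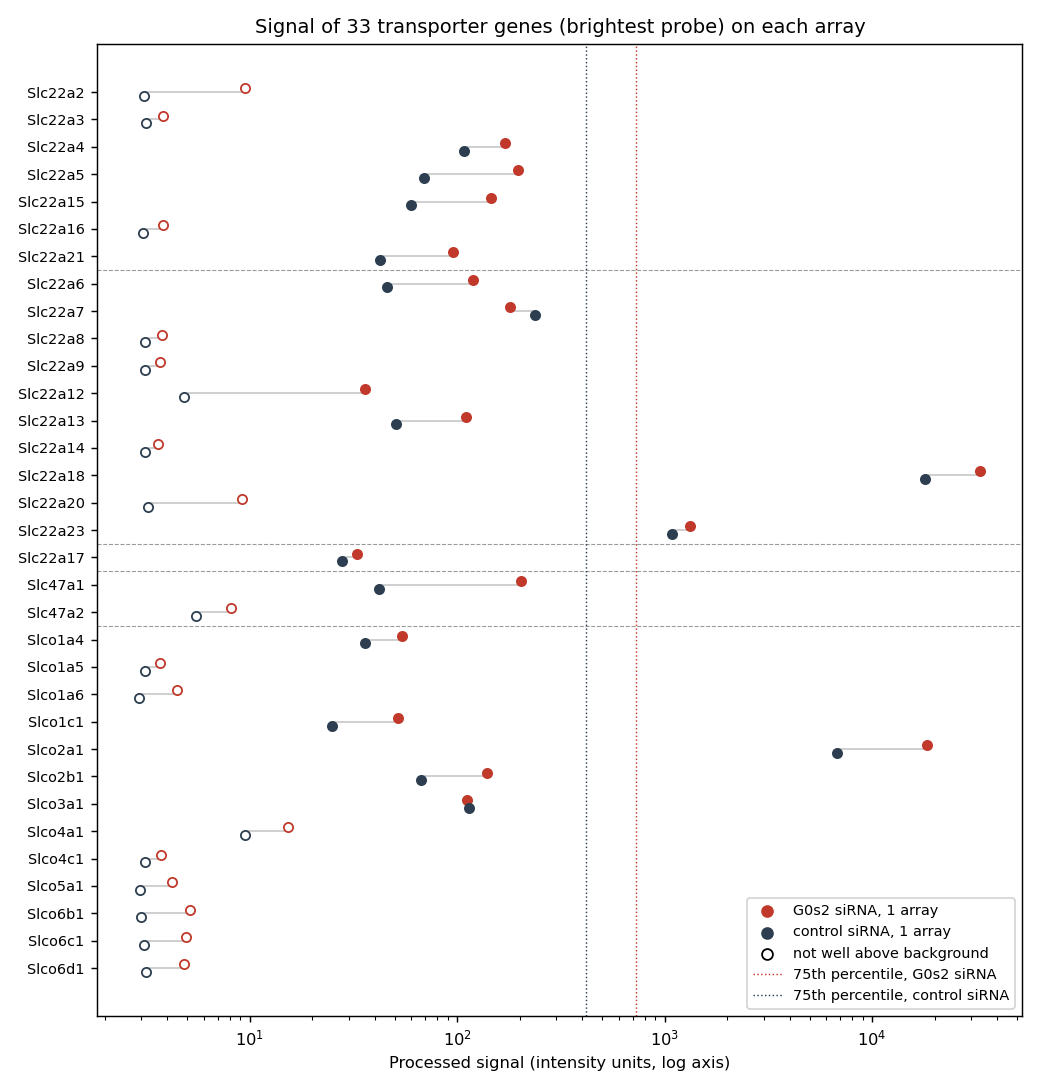
Processed signal of 33 transporter genes on a log axis, with 1 point per array (red, G0s2 siRNA; dark blue, control siRNA), open where the spot was not well above background. Dashed lines separate cation and zwitterion Slc22a genes, anion and orphan Slc22a genes, Slc22a17, Slc47a and Slco genes, and dotted lines mark the 75th percentiles of 728 and 418. Among the 17 detected genes drawn, Slc22a7 and Slco3a1 alone have the lower signal on the G0s2 siRNA array.

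Several of the dim genes are best known from other organs. Among cation carriers they were Slc22a2, the kidney cation carrier, Slc22a3, a carrier of monoamines, and Slc22a16, a carnitine carrier of testis. Among anion carriers they were Slc22a8, a kidney anion exchanger, Slc22a14, Slc22a20 and the gene listed as Slc22a9. The accession of that last probe carries the symbol Slc22a19 in the RefSeq table of assembly GRCm38.p6. Slc47a2, the second proton-coupled exporter, was dim, as were Slco1a5, Slco1a6, Slco4a1, Slco4c1, Slco5a1, Slco6b1, Slco6c1 and Slco6d1. The Slco4a1 spots had the highest signals among the dim genes, at 15.3 with G0s2 siRNA and 9.51 with control siRNA.

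Neighbouring members were alike in detection in some places and unlike in others. With 52.9% of the 34 genes detected, mixed neighbours are not read as a trait of the family. Among members within 1 Mb of each other in the RefSeq table, Slc22a4, Slc22a5 and Slc22a21 on chromosome 11 were all above background on both arrays, and Slco4c1 and Slco6c1 on chromosome 1 were both dim. Slc47a1 was detected beside a dim Slc47a2, Slc22a13 beside a dim Slc22a14, and Slc22a6 beside dim Slc22a8 and Slc22a9 probes. On chromosome 6, Slco1a4 and Slco1c1 were detected and Slco1a5 and Slco1a6 were dim. Slc22a12, detected on the G0s2 siRNA array only, lay beside a dim Slc22a20.

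Slc47a1 was higher with G0s2 siRNA, Slc22a7 was lower relative to the 75th percentile though not with spike-in centring, and most other detected transporters differed by less than 2-fold. Of the 18 detected genes, 2 were at least 2-fold higher, against 5.55% of all genes measured, and 1 was at least 2-fold lower, against 5.67%. The higher genes were Slc47a1 and Slc22a12, the latter with a dim control spot. Counted both ways, 3 of 18 transporters passed 2-fold, against 11.2% of all 18669 genes with a value, and nothing is called particular to the family from a count of that size. The median difference of the 18 genes was 0.26, with 11 positive and 7 negative, and the median of all genes was -0.01. Under normexp background correction the medians were -0.12 for the transporters and -0.14 for all genes, and no transporter passed 2-fold. With spike-in centring all genes shifted up to a median of 1.39, all 18 transporters were positive, and Slc22a7 turned to 0.20, which is -1.19 relative to that shift. Negative values below are therefore statements relative to the 75th percentile.

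**Figure D2:**
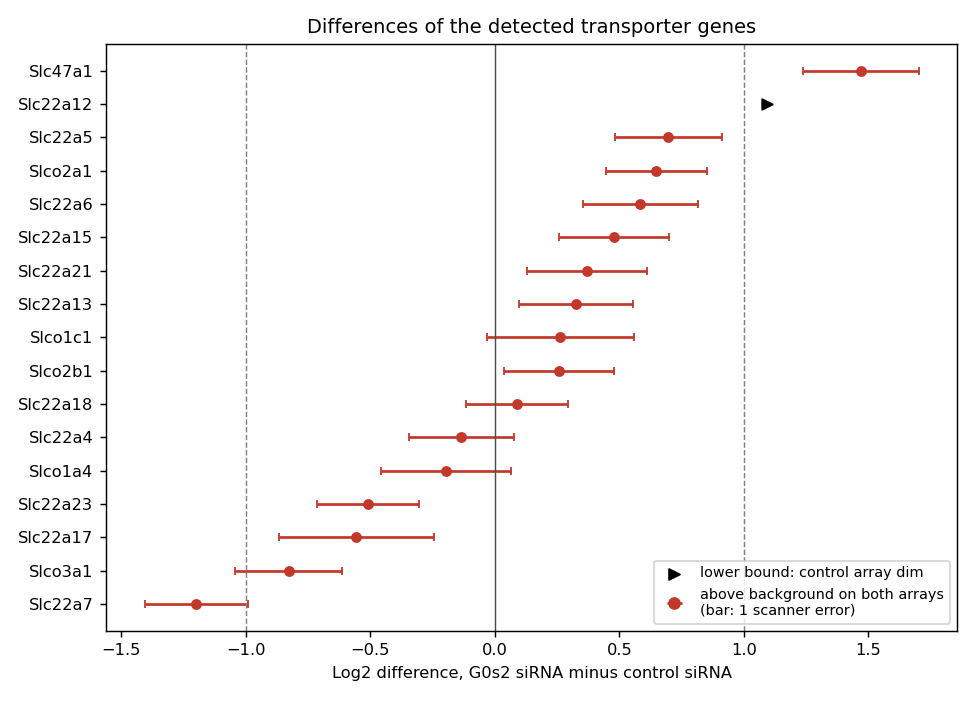
Log2 difference, G0s2 siRNA minus control siRNA, for 17 detected transporter genes relative to each array's 75th percentile. Points with bars are genes above background on both arrays with 1 scanner error, and dashed lines mark 2-fold. The triangle for Slc22a12 is a nominal lower bound, since its control spot was dim. Slc47a1 at 1.47 and Slc22a7 at -1.20 are the points outside the lines, and the Slc22a12 triangle at 1.09 also lies outside. Under spike-in centring Slc22a7 turns to 0.20.

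Slc47a1 encodes MATE1, which exports organic cations such as metformin into bile and urine. Its signal was 202 with G0s2 siRNA and 42.0 with control siRNA, and its level was -1.85 with G0s2 siRNA and -3.32 with control siRNA. The difference was 1.47 ± 0.23, or 2.77-fold higher with G0s2 siRNA, above 98.2% of all genes with a value. It rests on 1 spot per array, since the array holds no further Slc47a1 probe. Both signals lie below the 75th percentile, and under normexp with an offset of 50 the difference was 0.60, or 0.74 relative to the median of all genes under that correction.

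Among the Slc22a cation and zwitterion carriers, 5 of 8 were detected and none passed 2-fold. Slc22a5 encodes the sodium-dependent carnitine transporter OCTN2, which brings in the cofactor that long-chain fatty acids need to enter mitochondria. Its signal was 195 with G0s2 siRNA and 69.2 with control siRNA, a difference of 0.70 ± 0.22, and it stayed positive under normexp at 0.41. Its neighbour Slc22a21, a further carnitine carrier of the mouse, differed by 0.37 ± 0.24, and Slc22a4, known in humans as the ergothioneine transporter, by -0.14 ± 0.21. The difference of Slc22a4 is smaller than its scanner error, and that of Slc22a21 turned to -0.16 under normexp. Slc22a15, a zwitterion carrier, differed by 0.48 ± 0.22 and by 0.00 under normexp. Its other probe, at transcript position 817, was dim on both arrays.

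Among the Slc22a anion carriers and orphan members, 6 of 10 were detected. Slc22a7 encodes OAT2, an anion transporter known in humans from the blood-facing membrane of hepatocytes. It had a signal of 180 with G0s2 siRNA and 238 with control siRNA, lower on the array that was brighter in general. The difference was -1.20 ± 0.21, or 2.30-fold lower with G0s2 siRNA, and 3.89% of all genes had a lower value. Under normexp it was -0.90, or -0.76 relative to the median of all genes.

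Slc22a12 encodes URAT1, the urate exchanger of the kidney proximal tubule. Its signal was 36.0 with G0s2 siRNA, and the control siRNA spot, at 4.81, was not well above background. Set against the lowest signal well above background on the control array, 9.71, Slc22a12 was 2.13-fold higher with G0s2 siRNA. The measured log2 difference was 2.11 ± 0.98. The value of 2.13 is only a nominal bound, since brighter spots on that array, such as Epcam at 14.2, were also called dim. That bound depends on the background treatment: it was 0.97 on the log2 scale in the authors' series table. Under normexp it came out negative and was left out, so the higher value was not seen there.

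The other 4 detected genes of that group, and Slc22a17, which stands apart from both groups, did not pass 2-fold. Slc22a6, which encodes the kidney anion exchanger OAT1, had signals of 119 with G0s2 siRNA and 45.6 with control siRNA, a difference of 0.58 ± 0.23, and of 0.14 under normexp. Slc22a13, known in humans as OAT10, differed by 0.33 ± 0.23. It turned to -0.08 under normexp, which is 0.06 relative to the median of all genes under that correction. Slc22a18, an imprinted gene of unsettled substrate, was far above background, with signals of 33252 with G0s2 siRNA and 17964 with control siRNA, and differed by 0.09 ± 0.20. The orphan gene Slc22a23, with signals of 1318 with G0s2 siRNA and 1079 with control siRNA, differed by -0.51 ± 0.20. Slc22a17, proposed as a receptor for lipocalin-2, had signals of 32.8 with G0s2 siRNA and 27.8 with control siRNA and differed by -0.56 ± 0.31. Slc22a17 and Slc22a23 kept a negative value under normexp, at -0.65 and -0.49, while spike-in centring turned them to 0.84 and 0.89.

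Among the organic anion transporting polypeptide genes, 5 of 13 were detected and none passed 2-fold by its brightest probe. Slco2a1 encodes the prostaglandin transporter. Its signal was 18393 with G0s2 siRNA and 6746 with control siRNA, a difference of 0.65 ± 0.20, and it was 0.74 under normexp and 0.76 with quantile normalization. Endothelial cells also express Slco2a1. The endothelial markers Cdh5, Flt1, Lyve1 and Pecam1 differed by 1.01, 0.94, 0.89 and 0.77, whereas Kdr differed by -0.51, Stab2 by -0.18 and Eng by -0.05. Tek was dim on both arrays. The summed signal of the endothelial list was 7.39 times the 75th percentile with G0s2 siRNA and 9.72 times with control siRNA. Most of that sum is Kdr, with 4477 of 5376 with G0s2 siRNA and 3668 of 4066 with control siRNA. The part of endothelial cells in the Slco2a1 value was not tested.

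Slco3a1, known in humans as a carrier of prostaglandins and thyroid hormone, was measured by a pair of probes for different transcripts. The brightest probe had a signal of 111 with G0s2 siRNA and 114 with control siRNA, a difference of -0.83 ± 0.22 relative to the 75th percentile. The other probe had 36.3 with G0s2 siRNA and 57.8 with control siRNA, a difference of -1.47 ± 0.27. Both probes were thus lower with G0s2 siRNA relative to the 75th percentile, by unequal amounts, and the gene passes 2-fold when its probes are averaged, at -1.15. Under spike-in centring the brightest probe gave 0.57, which is -0.82 relative to the median of all genes.

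Slco2b1, a carrier of steroid sulfates and drugs, was also read by a pair of probes, which share 38 of their 60 bases. The brightest gave signals of 140 with G0s2 siRNA and 67.1 with control siRNA, a difference of 0.26 ± 0.22. The other gave 56.7 with G0s2 siRNA and 23.2 with control siRNA, a difference of 0.49 ± 0.30. These overlapping probes are not independent measurements. The gene's value turned to -0.07 under normexp, which is 0.07 relative to the median of all genes under that correction.

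Slco1a4, which takes up bile acids and cardiac glycosides, and Slco1c1, the thyroxine carrier of the blood-brain barrier, were dimmer. Slco1a4 had signals of 54.2 with G0s2 siRNA and 35.7 with control siRNA and differed by -0.20 ± 0.26. Slco1c1 had 51.7 with G0s2 siRNA and 24.8 with control siRNA and differed by 0.26 ± 0.30, turning to -0.43 under normexp, and its other probe was dim on both arrays. Both differences are smaller than their scanner errors. Slco1a genes have close paralogs, so their separate values are uncertain.

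**Figure D3:**
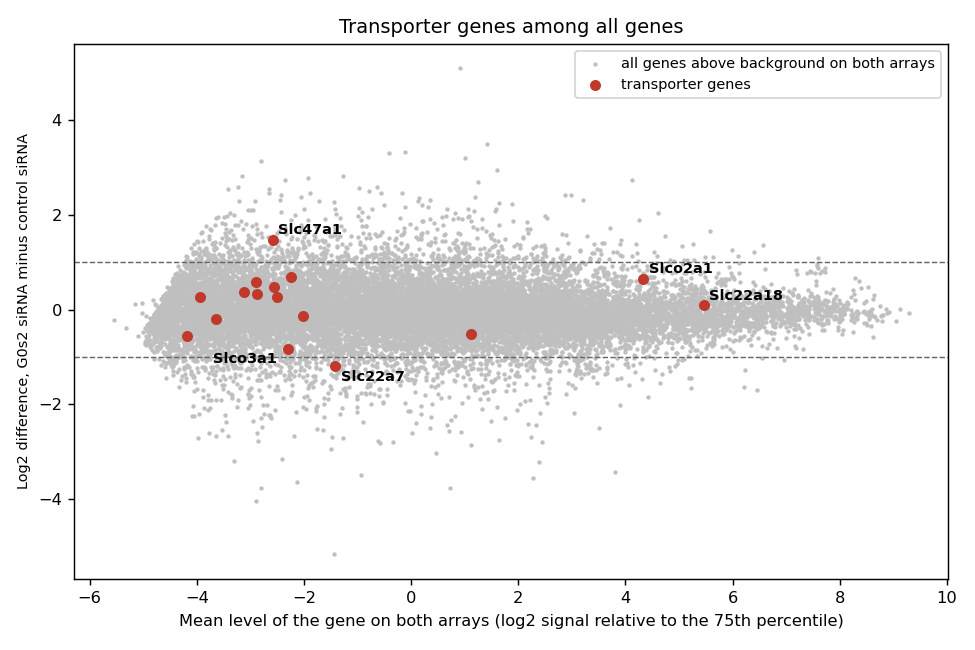
Log2 difference, G0s2 siRNA minus control siRNA, against mean level on both arrays (log2 signal relative to the 75th percentile) for every gene above background on both arrays (grey) and 16 transporter genes among them (red). Dashed lines mark 2-fold. Below the 75th percentile lie 13 of the 16 transporter genes and 8353 of all 16807 genes, and 11.3% of those 8353 differ by at least 2-fold.

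Most of the measured transporters had modest signals. Of the 17 genes above background on both arrays, 13 had a mean level below the 75th percentile, and 2 of these passed 2-fold, Slc47a1 and Slc22a7. Of all 16807 genes above background on both arrays, 8353 lay in that range, and 11.3% of those 8353 passed 2-fold. Against the scanner error alone, 8 of the 17 genes differed by more than 2 errors and 4 by less than 1. The same counts were not made over all genes, so they are not a result about the family. Normexp changed the sign for Slc22a13, Slc22a21, Slco1c1 and Slco2b1, each of them small and positive relative to the 75th percentile. The median of all genes was itself -0.14 under normexp. Relative to it, Slc22a13 and Slco2b1 stayed positive at 0.06 and 0.07, and Slc22a4 turned to 0.02. Slc22a21 and Slco1c1 were negative by that measure too, at -0.02 and -0.29.

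**Figure D4:**
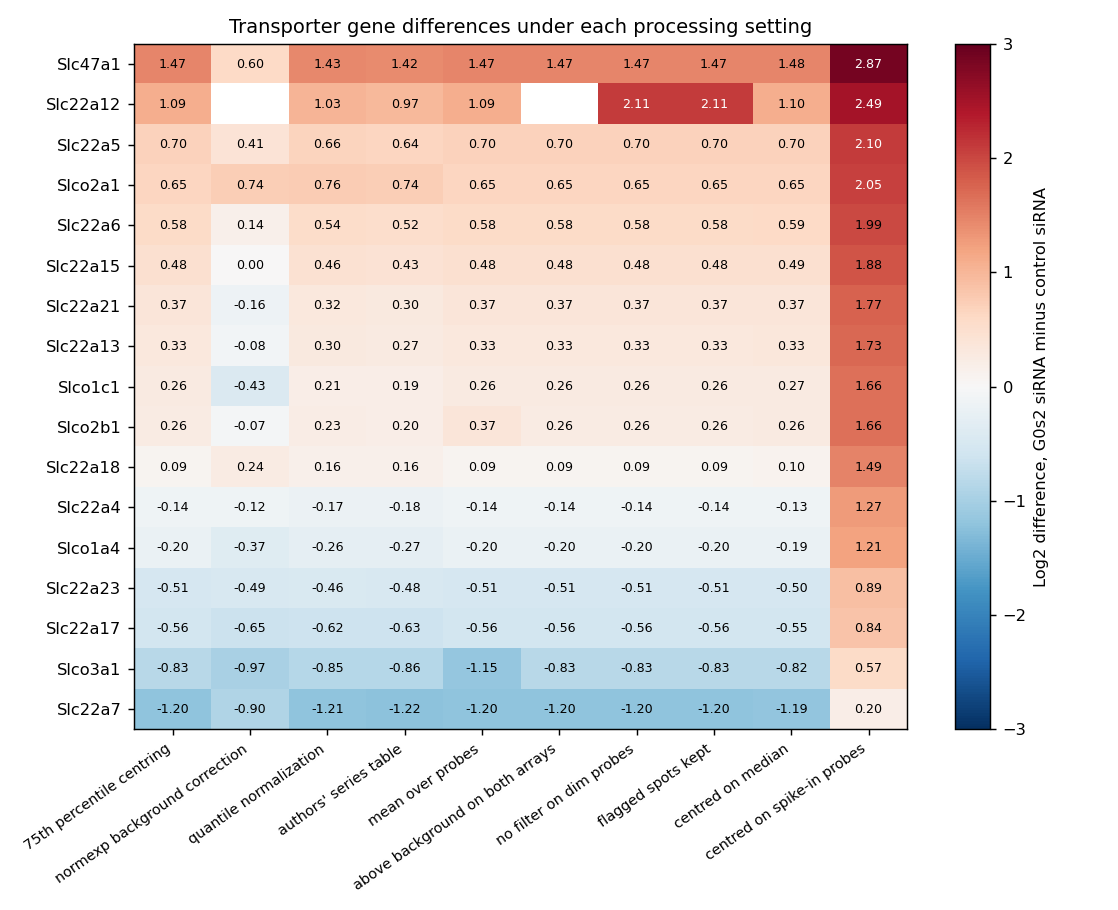
Log2 difference, G0s2 siRNA minus control siRNA, of 17 detected transporter genes (rows) under each processing setting (columns), with red for positive and blue for negative values. Cells are blank where the setting left the gene out. Slc47a1 is positive in every column, at 0.60 to 2.87, and Slc22a7 is negative in every column except spike-in centring, where it is 0.20.

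Of 25 other genes of small-molecule uptake and efflux, 23 were on the array and 20 had a value. Among these 1 was at least 2-fold higher, against 5.55% of all genes, and 2 were at least 2-fold lower, against 5.67%, with a median of -0.02 beside -0.01 over all genes. Abcb1a, which encodes a P-glycoprotein drug exporter, had a signal of 101 with G0s2 siRNA and 206 with control siRNA, a difference of -1.83 ± 0.21 relative to the 75th percentile. Slc29a4, a monoamine transporter gene, differed by -1.10 ± 0.34. Slc29a3, a nucleoside transporter gene dim on the control array, differed by 1.17 ± 0.42, or 2.25-fold higher. The bile acid uptake carrier Slc10a1, a defining transporter of hepatocytes, had signals of 249256 with G0s2 siRNA and 114683 with control siRNA and differed by 0.32 ± 0.20. The conjugate exporters of the bile-facing and blood-facing membranes, Abcc2 and Abcc3, differed by 0.29 ± 0.20 and -0.43 ± 0.20.

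Genes that control or anchor these transporters were detected on at least 1 array in all 13 cases. Of these 2 were at least 2-fold higher, against 5.55% of all genes, and 1 was at least 2-fold lower, against 5.67%, with a median of 0.45 beside -0.01 over all genes. Nr1i2, which encodes the drug-sensing nuclear receptor PXR, had a signal of 2169 with G0s2 siRNA and 528 with control siRNA, a difference of 1.24 ± 0.20. Nr0b2, which encodes the corepressor SHP, was dim on the G0s2 siRNA array. It differed by -1.45 ± 0.51, or 2.73-fold lower relative to the 75th percentile. Pdzk1, a scaffold protein that binds the tails of several membrane transporters, differed by 0.74 ± 0.20. These lists are described by their counts, and nothing is called particular to them.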

How the data were processed

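One 1-colour (Cy3) Agilent array was made per group from 0.5 ug of labelled RNA, per the labels' protocols. Per the file headers, the deposited scanner tables hold linear spot intensity values from Agilent Feature Extraction 10.7.1.1, background-corrected and detrended, with probe coordinates on mm9. The authors' series table holds intensity values too, with 97.8% of the ranked values exactly equal between the columns, with no tolerance. No source used here gives its normalization, and it served as an alternative.

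Controls and outlier spots were removed (39424 of 39429 probes kept, no member's spot flagged, none saturated), spots of a probe were averaged, and log2 processed signals were centred on the array's 75th percentile. A gene name of the array design was read from its brightest probe by mean level. Where 1 array was dim, it entered at the lowest signal well above background (9.81 with G0s2 siRNA and 9.71 with control siRNA), or at its own signal if that was larger. At the lowest signal the difference is a nominal bound, since some dim spots were brighter than that. At the spot's own signal it is the measured difference. A bound that came out lower for the array above background was left out. RefSeq accessions of assembly GRCm38.p6 gave the same symbol for 32 of 34 members. The values of 1 member and of 1 regulator are not reported here. No test was possible with 1 array per group, and the number of arrays limits the precision. Members, lists and the rule naming every member were chosen with earlier results of these data known. The calculation was tested on simulated data in which both arrays had the same detection calls, so the bound for 1 dim array was not tested. Software was Python 3.11.15, numpy 2.4.6, pandas 2.3.3, matplotlib 3.10.9, R 4.3.3 and limma 3.58.1.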

Additional observations from a re-analysis of the deposited data

How the results depend on the processing

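No paired analysis was possible because each group has 1 array. The 8 spike-in probes differed by -0.98 to -0.04 in log2 processed signal before any centring. With spike-in centring 14 transporters were at least 2-fold higher and 0 lower, their median was 1.66 and the G0s2 difference was -1.30. Slc22a7 turned to 0.20, and 14677 of all genes were higher and 85 lower. Relative to the median of all genes under that centring, an alternative chosen after seeing the data, 2 were higher and 1 lower. Under normexp, whose offset of 50 narrows the signal differences of dim genes, 0 transporters were higher and 0 lower. Their median was -0.12 and the G0s2 difference was -2.36. Of all genes, 420 were then higher and 557 lower, against 1036 and 1058 with centring on the 75th percentile. Without a filter on dim probes all 34 genes entered with a median of -0.16, and the median of all genes was also -0.16. Of all genes, 2156 were then higher and 1857 lower. At least 1.5-fold, 4 transporters were higher and 2 lower, with 2731 and 2640 of all genes, and at least 3-fold 0 and 0, with 257 and 364. The authors' series table gave 1 higher transporter, as did the restriction to genes detected on both arrays. The mean over probes gave 2 lower, Slc22a7 and Slco3a1. With flagged spots kept, the lowest well-above-background signal on the control siRNA array was 3.63, the Slc22a12 bound was 2.11 on the log2 scale, and higher genes made up 57.5% of those past 2-fold, against 49.5%. Of 160 single-gene values under alternatives, 130 moved by less than 1 scanner error. Many of these could not move. The filters on dim probes leave genes above background on both arrays unchanged, and averaging leaves genes with 1 probe unchanged. The count therefore does not measure how robust the values are. Quantile normalization, and centring on the median of detected probes, left the counts of genes past 2-fold within 1.5 times. Signal over background limits the dim genes, and 30 of 34 members rest on 1 probe.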

Other observations

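Several probes outside the name rule belong to the Slc22a family by their RefSeq accession, under older names of the array design, and they were looked up after the data were seen. A pair of them passed 2-fold upward. The probe listed as 9330176C04Rik, now Slc22a13b, had a signal of 306 with G0s2 siRNA and 56.1 with control siRNA, a difference of 1.65 ± 0.22. AB056442, now Slc22a27, had 70.5 with G0s2 siRNA and 17.8 with control siRNA, a difference of 1.19 ± 0.33. BC014805, now Slc22a26, was dim on the G0s2 siRNA array and differed by -1.11 ± 0.55, or 2.15-fold lower. D630002G06Rik, now Slc22a29, was dim on the control siRNA array. With that array set to the lowest signal well above background, it was 1.66-fold higher, a nominal bound. The brighter of the Gm5631 probes, now Slc22a28, differed by -0.27 ± 0.21, and BC026439, now Slc22a22, was dim on both arrays. Several of these genes are close paralogs, so their separate values are uncertain.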
